A study of Mus musculus with 18 samples.

Results

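The 8 genes described here encode enzymes that make NAD and enzymes that use it, and they were Nmrk1, Nmrk2, Nampt, Nmnat1, Nmnat3, Parp1, Sirt1 and Sirt3. They were taken as a list by gene symbol, and all 8 were found among the 43430 genes of the count table and among the 13596 genes with enough reads to be tested. The list was selected on prior readouts of these libraries. Which values were in view is not stated, and the fall of Nmrk2 in males on daily prednisone was taken to be among them. The comparison of daily prednisone with vehicle in males, and the mean of both sexes that contains it, are therefore described without p-values for any of the 8 genes.

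The libraries came from quadriceps myofibers of C57BL/6 mice (C57BL/6J in the study's methods), 1 library per mouse. The 18 libraries formed 6 groups of 3: males on vehicle, males on weekly prednisone, males on daily prednisone, and the same 3 treatments in females. Prednisone is a synthetic glucocorticoid, and the study asked how intermittent and daily exposure act on male and female muscle. The muscle was digested with collagenase and the material held back by a strainer was used, which can also carry cells other than myofibers. In such bulk RNA, fewer cells of a type and less RNA per cell cannot be told apart.

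NAD carries electrons between metabolic reactions and is also consumed as a substrate by sirtuins, which remove acyl groups from proteins, and by PARP enzymes, which add ADP-ribose to them. Consuming enzymes release nicotinamide, and cells recover it through Nampt, the rate-limiting enzyme of the main salvage route. A second route starts from nicotinamide riboside, which the kinases Nmrk1 and Nmrk2 phosphorylate, and both routes yield nicotinamide mononucleotide, which the Nmnat enzymes turn into NAD. Nmrk2 is known as the muscle-enriched kinase of this pair and Nmrk1 as the broadly expressed one.

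Total counts ranged from 10506661 to 14686654 per library, and mitochondrial transcripts took between 11.7% and 36.4% of them. No pair of libraries of 1 group agreed within sampling noise. The 8 myofiber markers summed to between 105900 and 204200 CPM in every library, CPM being counts relative to the TMM-scaled library size, so the tissue matched its label. Of the 10 adipocyte markers, 8 were called higher on daily prednisone over the mean of both sexes. The 10 adipocyte markers, none of them at 0 in any group, summed to between 599 and 922 CPM in vehicle males, 1162 and 2211 in daily males, 952 and 1243 in vehicle females and 1826 and 4163 in daily females. They summed to between 929 and 1578 CPM in weekly males. They also reached 6365 CPM in 1 library of weekly females, whose lowest library had 1158. The 10 macrophage markers summed to 95.6 to 132 CPM in weekly females and to 39.9 to 74.8 in vehicle females, and the 5 blood markers to 68.04 to 88.6 CPM in daily females and 96.5 to 175 in vehicle females, none of them at 0 in any group. Over the mean of both sexes 4 of the 5 blood markers were called lower on daily prednisone than on vehicle. The 7 endothelial markers summed to 604.6 to 961.5 CPM in daily females and 966.9 to 1008 in vehicle females. The 7 fibroblast markers summed to 1046 to 2540 and 1715 to 3670 CPM. In daily females 0 of 7 in each list had a log2 fold change above 0, against 6 endothelial and 5 fibroblast markers in daily males, with 0 called. Mitochondrial transcripts took 11.7% to 18.3% in daily females and 21.1% to 26.3% in vehicle females, and leaving those genes out gave the same number of called genes among the 8 in each of the 14 comparisons. The part of other cells in the results below was not tested except where a fit with the adipocyte markers is given.

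The promoters of Nmrk2, Nampt and Sirt1 are shown first, since these 3 genes differed most between daily prednisone and vehicle over the mean of both sexes. Each line holds the 250 bases before an annotated start of the gene, from RefSeq on GRCm38.p6 (mm10), written 5′ to 3′ on the strand of the gene. Capitals mark any match, on either strand, to 4 motifs: ACANNNTGT, a pair of glucocorticoid receptor half-sites, CACGTG, the E-box read by clock and other factors, AGGTCA, a nuclear receptor core, and TATAAA, the TATA box. The lines cover chr10:81202038-81202287 (minus strand), chr12:32820085-32820334 (plus strand) and chr10:63339036-63339285 (minus strand). In the count table the gene models span chr10:81198170-81202037 for Nmrk2, chr12:32820335-32853369 for Nampt and chr10:63319005-63381704 for Sirt1. Other starts are annotated for all 3 genes. RefSeq extends Nmrk2 to position 81202265, inside the window shown, and GENCODE places 418 of the 5054 exon bases of Nampt and 520 of the 5331 of Sirt1 before the start used.
Nmrk2: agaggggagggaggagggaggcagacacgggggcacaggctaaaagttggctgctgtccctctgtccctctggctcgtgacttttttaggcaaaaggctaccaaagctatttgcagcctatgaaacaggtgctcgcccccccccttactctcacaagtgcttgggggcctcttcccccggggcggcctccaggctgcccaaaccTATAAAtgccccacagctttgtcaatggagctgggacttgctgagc
Nampt: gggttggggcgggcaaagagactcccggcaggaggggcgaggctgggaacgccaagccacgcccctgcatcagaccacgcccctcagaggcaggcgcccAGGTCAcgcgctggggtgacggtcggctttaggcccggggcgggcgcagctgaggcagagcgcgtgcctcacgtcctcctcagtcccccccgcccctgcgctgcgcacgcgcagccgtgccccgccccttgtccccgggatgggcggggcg
Sirt1: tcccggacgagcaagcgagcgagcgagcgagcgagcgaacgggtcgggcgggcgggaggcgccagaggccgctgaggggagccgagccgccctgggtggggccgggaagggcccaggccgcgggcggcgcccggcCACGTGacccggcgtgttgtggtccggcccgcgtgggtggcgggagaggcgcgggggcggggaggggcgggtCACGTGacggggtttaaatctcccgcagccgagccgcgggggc

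The Nmrk2 window held 1 TATAAA, 46 bases before the start, a motif found in 12.3% of 32536 RefSeq promoter windows of the same length. The Nampt window held 1 AGGTCA, found in 14% of windows. The Sirt1 window held 2 CACGTG, 115 and 43 bases before the start, and that motif occurred in 6.04% of windows. ACANNNTGT was in none of these 3 windows and in 5.82% of all windows. The Nmrk2 window was 58.8% G and C, below the 75.6% of Nampt and the 79.2% of Sirt1. These matches are letters in a window and were not tested for binding.

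Compared per length, Nmrk2 had the highest group mean of the 8 genes in every group. In RPKM (CPM divided by the annotated exon length in kilobases), Nmrk2 stood at 156 ± 50.05 (SD, n = 3) in vehicle males. Nampt stood at 18.3 ± 1.68, Parp1 at 12.1 ± 2.48 and Nmnat1 at 5.21 ± 0.777. Nmnat3, Sirt1, Sirt3 and Nmrk1 lay lower, at 2.37 ± 0.510, 2.06 ± 0.321, 1.89 ± 0.103 and 1.34 ± 0.215. The values of Nmnat3, Sirt1 and Sirt3 did not differ beyond their spread. The count table gives other lengths, such as 20491 bases for Sirt1 against the 5331 used here. The order of these lower genes therefore depends on the length taken. In vehicle females, Nmrk2 had a mean of 22.9 ± 10.6 RPKM, close to the 14.3 ± 0.564 of Nampt given its spread.

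**Figure D1:**
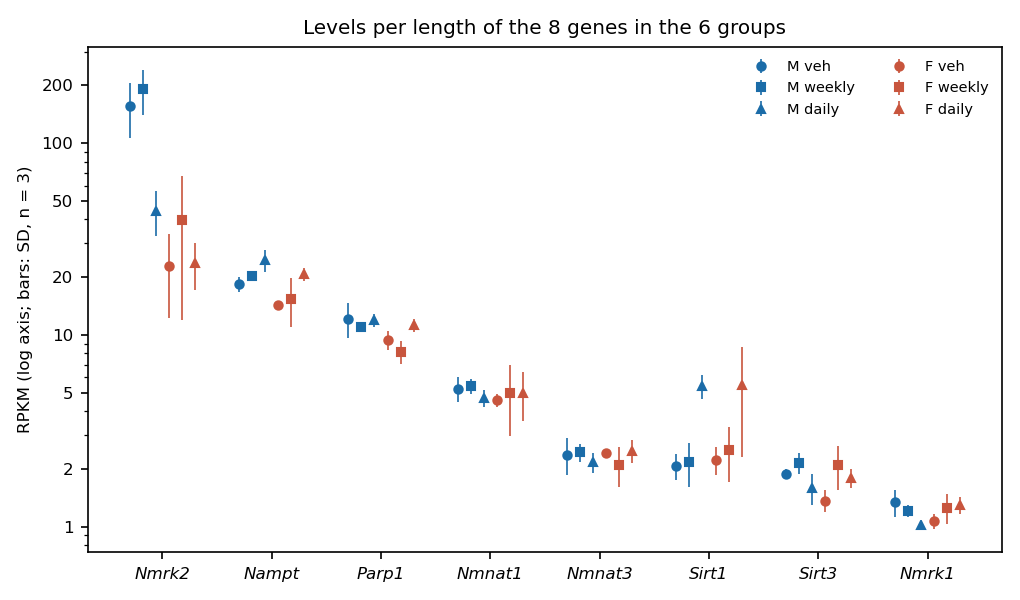
Mean level of each gene in RPKM (log axis) in the 6 groups, with bars giving the SD of 3 libraries; M is male, F is female and veh is vehicle. Nmrk2 ran from 190.7 in weekly males to 22.9 in vehicle females, and no other gene exceeded 24.4.

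Nmrk2 differed between the sexes before any treatment. It read 393, 214 and 262 CPM in the 3 vehicle males and 47.6, 20.65 and 58.8 CPM in the 3 vehicle females. The lowest male was above the highest female, and 18.9% of all genes did not overlap between these groups. The level in females was 0.146 times that in males, a log2 difference of -2.77 ± 0.48 (SE), and the difference was past the threshold (edgeR adjusted p = 0.0111). The vehicle males are also part of the comparison taken to have chosen Nmrk2, so this p-value is not independent of that choice. Of all genes tested, 0.765% were called between vehicle females and males, and Nmrk2 was the 1 gene of the 8 that was called. The call depended on single libraries. It was lost without male vehicle replicate 1 (log2 difference -2.48, edgeR adjusted p = 0.0704), without female vehicle replicate 1 (-2.85, 0.0708) and without female vehicle replicate 2 (-2.43, 0.0588), while the sign held in each fit.

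The same order held on weekly prednisone. Nmrk2 read 312, 460.0 and 289 CPM in weekly males against 131, 59.9 and 30.6 CPM in weekly females. Again the groups did not overlap, which 14.7% of all genes shared. The log2 difference, female minus male, was -2.26 ± 0.47 (edgeR adjusted p = 0.0383), in a comparison that was added after these levels had been seen and in which 0.765% of genes were called. This call was lost in 5 of the 6 fits that left out 1 weekly library, where log2 differences ran from -2.97 to -1.89, and it held only without female weekly replicate 1 (-2.97, edgeR adjusted p = 0.00598). Female weekly replicate 1 was the highest female library of the study for Nmrk2.
On daily prednisone the sexes lay closer. Nmrk2 read 107, 65.6 and 74.7 CPM in daily males and 40.85, 33.5 and 56.7 CPM in daily females. The lowest male was still above the highest female, and 16.4% of all genes did not overlap between these groups. The log2 difference, female minus male, was -0.92 ± 0.46. At this treatment 0.802% of all genes were called between the sexes and 0 of the 8 were, also by DESeq2 and limma-voom.

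**Figure D2:**
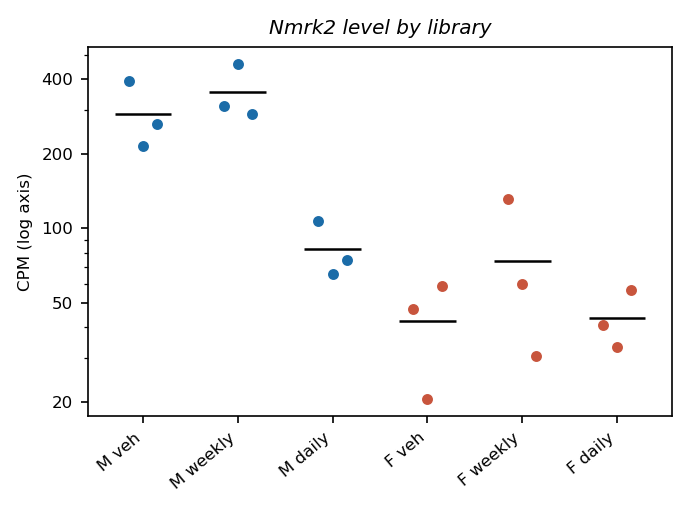
Nmrk2 level in CPM (log axis) in each of the 18 libraries; points are libraries and lines are group means (M, male; F, female; veh, vehicle). Within each treatment all 3 males lie above all 3 females, and daily males lie between 65.6 and 107 CPM, below every other male. The share of all genes without overlap between the sexes was 18.9% on vehicle, 14.7% on weekly and 16.4% on daily prednisone.

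In males, daily prednisone was accompanied by a lower level of Nmrk2. All 3 daily males were below all 3 vehicle males, and the ratio of the fitted levels was 0.285, a log2 fold change of -1.81 ± 0.47. These values were taken to have chosen this gene and are a description. In females no such change was measured: the log2 fold change was 0.04 ± 0.46 (95% interval -0.93 to 1.02, edgeR adjusted p = 0.974), and the daily females lay within the range of the vehicle females. The direction in females depended on single animals. It was -0.29 without female vehicle replicate 2 and -0.19 without female daily replicate 3. The difference between the daily responses, female minus male, was 1.86 ± 0.65 on the log2 scale, which holds the same male values and is a description.

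On weekly prednisone the Nmrk2 libraries overlapped those on vehicle in both sexes. The log2 fold change was 0.29 ± 0.45 in males (edgeR adjusted p = 0.923) and 0.80 ± 0.46 in females (0.727). The value in females fell to 0.09 without female weekly replicate 1. Daily against weekly prednisone gave a log2 difference of -2.10 ± 0.47 in males. Every daily male lay below every weekly male, and 24.5% of all genes did not overlap between these groups. The comparison holds the daily males taken to have chosen Nmrk2 and is given without a p-value. There edgeR called 0% of all genes. In females the difference was -0.76 ± 0.46 (edgeR adjusted p = 0.411).
Over the mean of both sexes, the log2 difference of Nmrk2 between daily and weekly prednisone was -1.43 ± 0.33, and it ran from -1.61 to -1.07 when 1 library was left out. This too holds the daily males and is a description. edgeR called 8.17% of all genes there and 2 of the 8, Nmrk2 and Sirt1, and nothing is read from that count.

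The annotated exons of Nmrk2 share 270 bases, 14.6% of their length, with the antisense gene Atcayos on the other strand, and the strand setting of the counting is not stated. Atcayos stood at 74.8 ± 7.29 CPM in vehicle males, 54.6 ± 5.68 in daily males and 59.5 ± 1.98 in vehicle females. Between vehicle females and males Atcayos differed by -0.33 on the log2 scale (edgeR adjusted p = 0.537), beside the -2.77 of Nmrk2.

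The level of Nmrk2 was also set against the other entries to the pathway. Per length, Nmrk2 was 5.96 to 11.03 times Nampt in vehicle males, 7.82 to 11.9 times in weekly males and 1.47 to 2.35 times in daily males. In females the ratio ran from 0.749 to 2.31 on vehicle, from 0.846 to 4.39 on weekly prednisone and from 0.932 to 1.37 on daily prednisone. The daily males fell inside the range pooled over all females, while every daily male lay above every daily female. Against Nmrk1, the broadly expressed kinase, Nmrk2 was 83.5 to 139 times as high in vehicle males and 11.5 to 27.2 times as high in vehicle females.

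Nmrk1 itself had the fewest reads of the 8 genes, with between 33 and 84 per library. It read 5.62, 5.10 and 4.06 CPM in vehicle males and 3.54, 3.96 and 3.82 CPM in daily males. The daily males were below all vehicle males, at a log2 fold change of -0.39 ± 0.18. In females it read 3.98, 3.59 and 4.30 CPM on vehicle and 4.22, 5.03 and 5.08 CPM on daily prednisone, with overlap and a log2 fold change of 0.27 ± 0.18 (edgeR adjusted p = 0.470). The difference of 0.66 ± 0.26 between these responses was not called. It holds the same male values and is a description.

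Nampt was higher on daily prednisone in both sexes. It read 97.2, 97.8 and 82.8 CPM in vehicle males and 124, 107 and 139 CPM in daily males. It read 72.3, 75.2 and 69.5 CPM in vehicle females and 102, 97.9 and 113 CPM in daily females. All 3 daily libraries were above all 3 vehicle libraries in each sex. The log2 fold change was 0.42 ± 0.17 in males and 0.53 ± 0.17 in females (edgeR adjusted p = 0.125 in females), and 0.47 ± 0.12, or 1.39-fold, over the mean of both sexes.

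Over that mean edgeR called 15% of all genes and 2 of the 8, Nampt and Sirt1. Nothing is read from that count since the mean holds the comparison the list was taken to be selected on. The 10 adipocyte markers were also higher on daily prednisone, with a median log2 fold change of 2.59 over both sexes. Their median was 2.86 on weekly prednisone, with 0 called, where Nampt changed by 0.12 ± 0.12. With the adipocyte score of each library in the fit, the daily log2 fold change of Nampt was 0.08 ± 0.14, and 0 of the 13596 genes were called. The score itself differed between treatments, so that fit cannot tell the score and the treatment apart. Against weekly prednisone over both sexes Nampt differed by 0.35 ± 0.12 without the score and by 0.35 ± 0.09 with it. That comparison holds the daily males too and is a description. In weekly males Nampt read 99.4, 106 and 101 CPM, all above the vehicle males, with a log2 fold change of 0.14 ± 0.17 (edgeR adjusted p = 0.900). It was the 1 of the 8 genes whose groups did not overlap there, beside 16.7% of all genes. In weekly females it spread from 53.9 to 98.6 CPM around the vehicle females, with a log2 fold change of 0.11 ± 0.17 (edgeR adjusted p = 0.976). Daily exceeded weekly prednisone on the log2 scale by 0.28 ± 0.17 in males, a description since it holds the daily males. In females the difference was 0.42 ± 0.17 (edgeR adjusted p = 0.205).
Vehicle females had less Nampt than vehicle males without overlap. The log2 difference was -0.36 ± 0.17 (edgeR adjusted p = 0.479), and 18.9% of all genes separated these groups in the same sense of no overlap. Nmrk2, Nampt and Sirt3 were the 3 of the 8 that did, each lower in females.

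Nmnat1 and Nmnat3, the nuclear and the mitochondrial enzyme that complete NAD, stayed within the spread in every comparison. Neither reached an unadjusted p under 0.05 in any of the 14 comparisons. The group means of Nmnat1 lay between 13.9 and 16.4 CPM and those of Nmnat3 between 10.5 and 12.5 CPM. Nmnat1 was highest in female weekly replicate 1 (22.1 CPM) and female daily replicate 1 (20.1 CPM), and its other 16 libraries lay between 11.01 and 17.97 CPM.

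Parp1, which uses NAD at sites of DNA damage, differed most between daily and weekly females. It read 49.6, 37.5 and 42.9 CPM in weekly females and 64.7, 55.7 and 57.7 CPM in daily females. The groups did not overlap, which 17.2% of all genes shared. The log2 difference was 0.45 ± 0.15 and was not past the threshold (edgeR adjusted p = 0.135). In daily against vehicle males the log2 fold change was -0.02 ± 0.15, and in females 0.26 ± 0.15 (edgeR adjusted p = 0.396).

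Sirt1, the nuclear deacetylase that uses NAD, was higher on daily prednisone. It read 9.04, 12.3 and 11.7 CPM in vehicle males and 29.3, 32.5 and 24.5 CPM in daily males, with no overlap and a log2 fold change of 1.39 ± 0.38, or 2.62-fold. edgeR called 6.46% of all genes in that comparison and 2 of the 8. Nothing is read from that count since the list was taken to be selected there. In the 6 fits that left out 1 library the log2 fold change of Sirt1 ran from 1.29 to 1.53, and 0 of the 8 genes were called.
In females Sirt1 read 11.4, 10.1 and 13.97 CPM on vehicle and 11.1, 44.6 and 32.0 CPM on daily prednisone. Female daily replicate 1 lay within the vehicle range, while the other 2 daily females were above every vehicle female. The log2 fold change of 1.30 ± 0.37 was not past the threshold (edgeR adjusted p = 0.101), and 0 of the 8 genes were called there, beside 0.382% of all genes. DESeq2 called 1 of the 8, Sirt1 (adjusted p = 0.0222), and edgeR called it without female daily replicate 1 (1.69, adjusted p = 0.0193). That was the 1 call in the 6 fits that left out 1 library. In these fits the log2 fold change went down to 0.86 without female daily replicate 2, and the edgeR adjusted p went up to 0.309. At an unadjusted p under 0.05, 2 of the 8 genes passed in daily females, Nampt and Sirt1, beside 17.3% of all genes.

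A difference between the sexes in the response of Sirt1 to daily prednisone was not detectable with 3 libraries per group. The difference, female minus male, was -0.09 ± 0.52 on the log2 scale (95% interval -1.20 to 1.02). It holds the daily and vehicle males and is a description. Over the mean of both sexes Sirt1 was 2.54 times as high, a log2 fold change of 1.35 ± 0.26, and 1.48 ± 0.41 with the adipocyte score in the fit.
On weekly prednisone the Sirt1 libraries overlapped those on vehicle in both sexes. It read 14.9, 8.84 and 11.01 CPM in weekly males and 8.85, 17.4 and 13.9 CPM in weekly females. The log2 fold changes were 0.08 ± 0.38 (edgeR adjusted p = 0.979) and 0.17 ± 0.38 (0.992), with 95% intervals of -0.73 to 0.88 and -0.63 to 0.97.
Against weekly prednisone, daily prednisone gave a log2 difference of 1.31 ± 0.37 in males, a description since it holds the daily males. In females the difference was 1.14 ± 0.37 (edgeR adjusted p = 0.135). In these females same-numbered libraries deviated together. With the replicate number as a block the difference was 0.99 ± 0.21 and past the threshold (edgeR adjusted p = 0.0307). The labels do not pair these mice, and the block was chosen after the data were seen, so nothing is read from that call. Over the mean of both sexes the daily minus weekly difference of Sirt1 was 1.23 ± 0.26. This comparison shares the daily males with the one described without a test, so it is a description. It ran from 1.01 to 1.42 in the 12 fits that left out 1 library. Fitted on the compared groups alone, it was 1.19 ± 0.30.

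**Figure D3:**
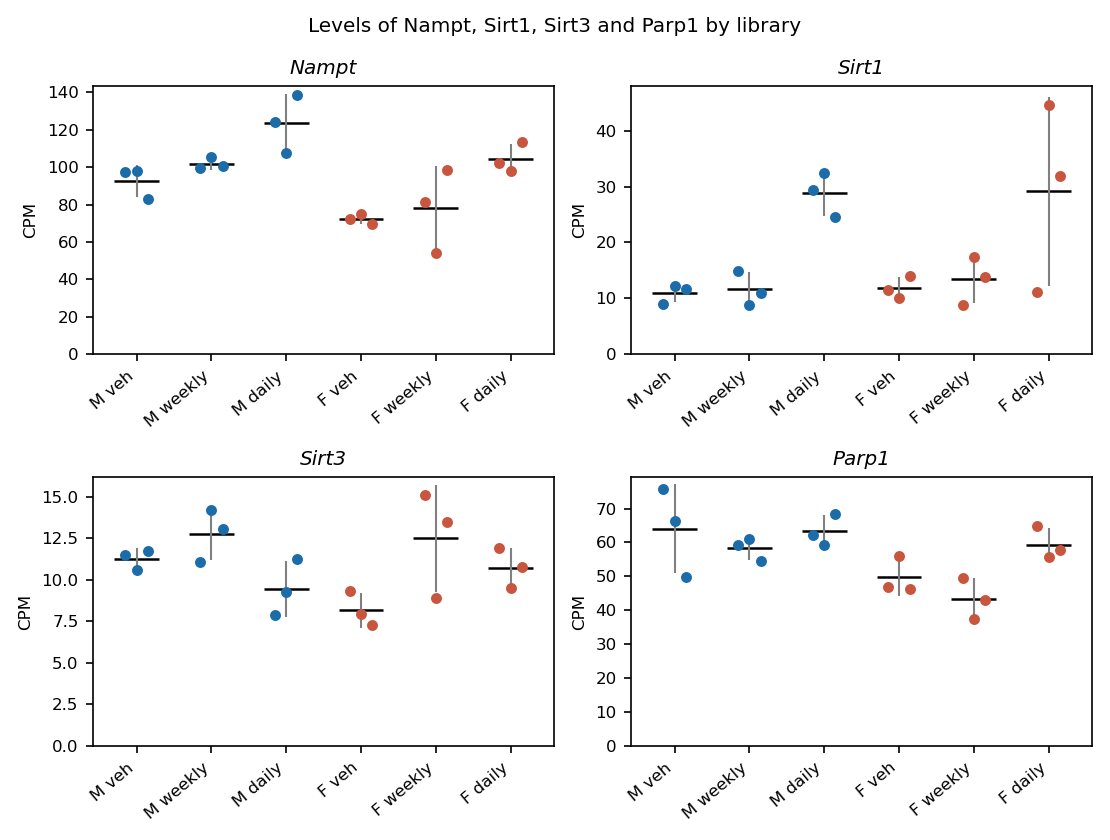
Level in CPM of Nampt, Sirt1, Sirt3 and Parp1 in each library; points are libraries, horizontal lines group means and vertical bars the SD (n = 3; M, male; F, female; veh, vehicle). Sirt1 lies above 24 CPM in 5 of 6 daily libraries, the exception being female daily replicate 1 at 11.1.

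Sirt3, the main mitochondrial deacetylase, had fold changes of either sign without passing the threshold in any comparison. It read 9.31, 7.93 and 7.25 CPM in vehicle females and 15.2, 8.90 and 13.5 CPM in weekly females. These groups overlapped, and the log2 fold change was 0.62 ± 0.19 (edgeR adjusted p = 0.318). The macrophage markers also summed higher in weekly than in vehicle females, with all 10 log2 fold changes above 0 and 0 called, and their part in the Sirt3 value was not tested. In both comparisons of weekly prednisone with vehicle edgeR and limma-voom called 0% of all genes, while DESeq2 called 1 gene in males and 152 in females, none of them among the 8. Without female weekly replicate 2 Sirt3 was called (0.79, edgeR adjusted p = 0.0265), beside 253 of 13839 genes. That was the 1 call of Sirt3 in the 6 fits that left out 1 library. In these fits its log2 fold change went down to 0.46 without female weekly replicate 1, and the edgeR adjusted p went up to 0.887. At an unadjusted p under 0.05, 1 of the 8 genes passed in weekly females, Sirt3, and 0 of 8 in weekly males, beside 7.97% and 5.71% of all genes.
In daily females Sirt3 read 11.9, 9.50 and 10.8 CPM, all above the vehicle females (log2 fold change 0.39 ± 0.19, edgeR adjusted p = 0.309). It read 11.5, 10.6 and 11.8 CPM in vehicle males and 7.86, 9.24 and 11.3 CPM in daily males, a log2 fold change of -0.26 ± 0.19. Across the 8 genes, 2 did not overlap between daily and vehicle females (Nampt and Sirt3, both above), beside 23.1% of all genes. In males 4 did, Nampt and Sirt1 above and Nmrk1 and Nmrk2 below, beside 33.4% of all genes. The exons of Sirt3 share 418 bases with Ric8a and 342 with Psmd13, both on the other strand. The strand setting of the counting is not stated, and counted without strand the reads of these bases could not be told apart. Psmd13 was lower in daily than in vehicle males (log2 fold change -0.67 ± 0.14, edgeR adjusted p = 0.0141).

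The 8 genes shared a sign in daily females and not in daily males. On daily prednisone all 8 log2 fold changes were above 0 in females, from 0.04 to 1.30, beside 50.8% of all genes. Their median was 0.26, against a median of 0.01 over all genes tested. In males 2 of 8 were above 0, beside 54.5% of all genes, with a median of -0.15 against 0.05 over all genes. On weekly prednisone the medians were 0.06 in males and 0.15 in females. The interaction of sex with treatment was called for 0 of the 8 genes by edgeR, DESeq2 and limma-voom. For either treatment edgeR and limma-voom called 0% of all genes, and DESeq2 called 2 genes for daily and 0 for weekly prednisone. At an unadjusted p under 0.05 it passed for 3 of 8 in the daily response, Nmrk1, Nmrk2 and Sirt3, and for 0 of 8 in the weekly response, beside 4.69% and 2.63% of all genes. The daily count holds the male values the list was taken to be selected on and is a description.

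**Figure D4:**
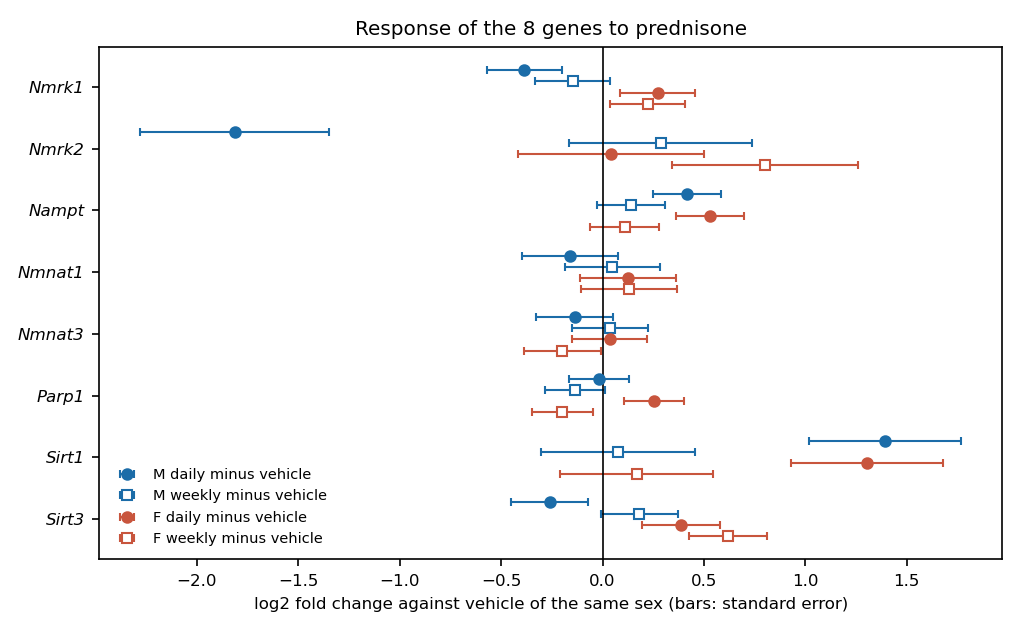
Log2 fold change against vehicle of the same sex for each gene, with bars giving the standard error; filled circles are daily and open squares weekly prednisone, blue is male (M) and red is female (F). Nmrk2 in daily males lies at -1.81, Sirt1 in both daily groups lies at 1.30 and 1.39, and the weekly values lie between -0.20 and 0.80.

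Of 41 other genes of NAD salvage, de novo synthesis, use and the remaining sirtuins, 1 (Pnp) had no match by symbol in the count table and 32 had enough reads to be tested. edgeR called 1 of the 32 lower in daily males, beside 6.46% of all genes, 0 in daily females, beside 0.382%, and 0 in either weekly group, beside 0%. That gene was Macrod1, which encodes a hydrolase that removes ADP-ribose. It read 232, 191 and 181 CPM in vehicle males and 125, 104 and 136 CPM in daily males, a log2 fold change of -0.73 ± 0.20 (edgeR adjusted p = 0.0358). In daily females it read 198, 124 and 144 CPM against 171, 231 and 173 CPM on vehicle, which overlapped (log2 fold change -0.30 ± 0.19, edgeR adjusted p = 0.438).
Over the mean of both sexes on daily prednisone, 1 of the 32 was called higher and 1 lower, beside 15% of all genes. The higher was Tnks, a PARP family member known as tankyrase, at 0.56 ± 0.15 (edgeR adjusted p = 0.0199), and the lower was Macrod1 at -0.52 ± 0.14 (0.0194). The median over the 32 genes was 0.06.
Art5, an ADP-ribosyltransferase of the cell surface family, was the 1 gene of the 32 called between vehicle females and males. It read 24.1, 43.4 and 29.4 CPM in vehicle females and 14.8, 15.99 and 14.7 CPM in vehicle males (log2 difference 1.09 ± 0.21, edgeR adjusted p = 0.0160), the opposite order to Nmrk2. It was also called on weekly prednisone (1.16 ± 0.21, edgeR adjusted p = 0.0106) and on daily prednisone (1.23 ± 0.21, 0.00589).
The most abundant genes per length of the 4 lists, on the length given in the count table, were Slc25a51, the mitochondrial NAD carrier, Qprt of the de novo route, Art1 among the users and Sirt2 among the sirtuins. Their vehicle male means were 5.49, 0.398, 208 and 7.03 RPKM. The de novo route had few reads, with 6 of its 9 genes under the filter and Kynu at 0 reads in all 18 libraries.

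Salvage through Nampt is tied to the circadian clock, so 13 clock genes were set beside the 8. In daily females 1 was called higher, Nr1d2 (log2 fold change 0.86 ± 0.16, edgeR adjusted p = 0.0429), and 1 lower, Npas2 (-2.46 ± 0.38, 0.0429). The share over all genes was 0.382% there. In daily males 0 clock genes were called, beside 6.46% of all genes. Over the mean of both sexes 3 were called higher and 1 lower on daily prednisone than on vehicle, beside 15% of all genes. Daily against weekly prednisone also gave 3 higher and 1 lower, beside 8.17%. Their summed level was 580 to 747 CPM in vehicle females, 819 to 925 in daily females, 606 to 648 in vehicle males and 654 to 709.9 in daily males. Their part in the values of the 8 genes was not tested.

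**Figure D5:**
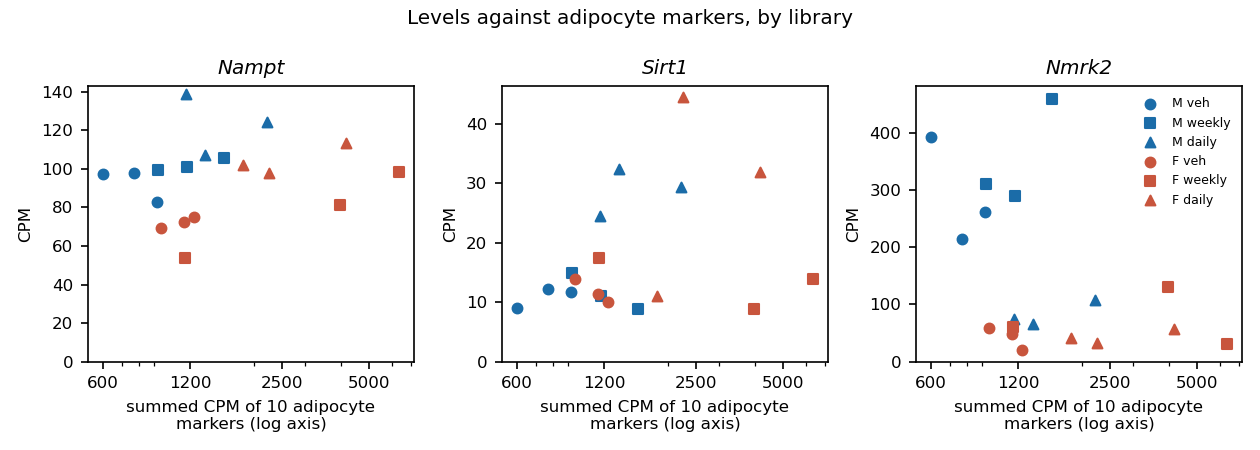
Level in CPM of Nampt, Sirt1 and Nmrk2 in each library against the summed CPM of 10 adipocyte markers (log axis); color gives sex and shape gives treatment (M, male; F, female; veh, vehicle). Daily libraries (triangles) lie at sums of 1162 to 4163, and the weekly females, with sums from 1158 to 6365, have Sirt1 levels of at most 17.4 CPM.

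For each gene, the genes whose levels ran most alike over the 18 libraries were found by Pearson's r of log2 CPM, as a description. Groups of one sex and treatment and the adipocyte markers are shared by these points. Nmrk2 ran most like Msrb1 (r = 0.897), Rpusd3 (0.890) and Cited4 (0.890). Sirt1 ran most like Pcf11 (0.959), Brd2 (0.957) and Srsf2 (0.955), and Nampt most like Golph3 (0.932), Stt3b (0.931) and Adam9 (0.930).
With the 2 libraries farthest from the median left out, r was between 0.848 and 0.866 for the 3 genes of Nmrk2, between 0.940 and 0.961 for those of Sirt1 and between 0.875 and 0.936 for those of Nampt. Parp1 ran most like Ttc3 (0.956), Nmnat1 like Mapkapk2 (0.943), Nmnat3 like Pfn2 (0.865), Sirt3 like Isca2 (0.823) and Nmrk1 like Carns1 (0.823). Among the 8 genes themselves the closest pairs were Nmnat1 with Nmnat3 (0.772) and Nampt with Parp1 (0.739).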

How the data were processed

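The authors deposited raw counts of reads for each gene, as whole numbers, made from polyA RNA. The submitters' processing notes name TopHat2 2.1.0, Bowtie2 2.2.6, HTSeq and the builds mm10 and mm9, and the study's methods give mm10. The strand setting and annotation release are not given in the sources used here. Libraries were grouped by their titles, 3 per group, and each p-value measures the spread between mice.

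The counts were filtered with filterByExpr (minimum count 10) and normalized by TMM in edgeR 4.0.16 (R 4.3.3). A single robust quasi-likelihood fit of 18 libraries gave 1 mean for each of the 6 groups. Two-sided p-values were adjusted over 13596 genes (Benjamini-Hochberg), with calls at an adjusted p under 0.05. RPKM used the union of GENCODE exons. The steps were tested on simulated counts. The 8 genes, the pathway and marker lists and the tests were chosen with earlier results of these data known, so no p-value is independent evidence for the list. All 8 genes are named. Other pathway genes are named where called, or as the most abundant per length of their list, and for each of the 8 the 3 genes most alike are drawn on.

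Alternatives were DESeq2 1.42.0 and its size factors, limma-voom (limma 3.58.1), no filter, a stricter filter (minimum count 50), mitochondrial genes left out, a replicate block, a covariate for the adipocyte score (mean log2 CPM of the markers), the compared groups alone and each library left out. Removing trends on length and GC content, a block in daily and weekly females alone and the sex comparisons on weekly and daily prednisone were added after the data were seen. Replicate numbers come from the titles. Their deviations correlated in every pair only between daily and weekly females (0.501, 0.483 and 0.439), so the number was used as a block there. The labels do not pair these mice. Of 43430 identifiers, 42462 had a symbol. Promoters of all 8 genes were matched in RefSeq on GRCm38.p6.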

Additional observations from a re-analysis of the deposited data

How the results depend on the processing

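The number of the 8 genes called is given with the number over all genes in brackets. In daily against vehicle males it was 2 by edgeR (878 of 13596) and 1 by limma-voom (862). It was 0 without a filter (600 of 24370), with the adipocyte score (36) or with length and GC trends removed (454 of 13529). In daily against vehicle females it was 0 (52), and 1 by DESeq2 (530). Between daily and weekly males it was 0 (0), 2 by DESeq2 (225) and 1 on the compared groups alone (10 of 12864). Between daily and weekly females it was 0 (0), and 1 by DESeq2 (546) and with the replicate block in these groups (522). For the mean of both sexes it was 2 against vehicle (2033) and 0 with the adipocyte score (0). It was 3, Nmrk2 added, by DESeq2 (2354) or on the compared groups alone (2386). Against weekly prednisone it was 2 (1111), and 1 without a filter (873) or on the compared groups alone (535). It was 3, Nampt added, with the adipocyte score (1128). The 1 call between weekly females and males (104) became 0 without a filter (113), with the adipocyte score (65) or on the compared groups alone (13). The cause was not tested. With a replicate block over all 18 libraries the count of called genes among the 8 was the same in each of the 14 comparisons (2 in daily against vehicle males).

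With 1 library left out, 0 of the 8 were called in daily against vehicle males, beside 92 to 414 of all genes. In females 0 to 1 were called in daily against vehicle (0 to 126 of all genes), weekly against vehicle (0 to 253) and daily against weekly (0 to 312). Between daily and weekly prednisone over both sexes 1 to 3 were called (568 to 1122). Between the sexes 0 to 1 were called on vehicle (43 to 105) and on weekly prednisone (47 to 289). The log2 fold change of Nmrk2 in daily females turned from 0.04 to -0.27 with the adipocyte score, -0.29 without female vehicle replicate 2 and -0.19 without female daily replicate 3, and leaving out 1 library gave -0.29 to 0.36. The sex difference of its weekly response turned from 0.51 to -0.20 without female weekly replicate 1, in a range of -0.20 to 0.89. Of 374 alternatives other than leaving out a library for single genes, 350 kept direction and side of the threshold, 14 fell below it, 9 rose past it and 1 reversed. Nmrk1 had the fewest reads, 33 to 84 per library, which limits the precision of its level.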
